A study of Mus musculus with 10 samples.

Results

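Genes that encode the proteins of the cytosolic ribosome were followed in RNA-seq of mouse bone marrow cells, labelled BMMC, from animals given regular water or water with 1% α-KG (α-ketoglutarate, an intermediate of the tricarboxylic acid cycle). Members were chosen by symbol alone: every row named Rpl or Rps with a number, allowing the endings a, x, l and l1, plus Rplp0, Rplp1, Rplp2 and Rpsa, and without rows named as pseudogene copies. This took 86 of 55367 genes. Of these, 76 are genes of the standard set, with 43 for the large (60S) subunit, 30 for the small (40S) subunit and 3 for the P stalk of the large subunit. The other 10 have symbols ending in l or l1 and are variants or copies, of which the annotation used calls 6 protein-coding and 4 pseudogenes. The labels give no genotype, strain, sex, age or length of treatment, and they name no agent other than α-KG. Each group had 5 libraries, called water 1 to 5 and α-KG 1 to 5, and a number shared between the groups pairs nothing. No label ties a library to an animal, and p-values here reflect only how much these libraries vary. Xist, which is transcribed from the inactive X chromosome, and the Y-linked Ddx3y both had counts in all 10 libraries. Only the presence of a count was recorded, which does not tell the sex, and what a single library stands for is not known.

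Each ribosome carries a single copy of nearly every ribosomal protein, with the acidic P stalk proteins Rplp1 and Rplp2 as the known exception, and cells make the proteins in matched amounts. Their messenger RNAs belong to the TOP class, which start with a C followed by an unbroken stretch of C and T and whose translation follows the growth kinase mTORC1 through the binding protein LARP1. In bone marrow the supply of ribosomes matters most visibly in red cell precursors: loss of a copy of RPS19 or several other ribosomal protein genes causes Diamond-Blackfan anaemia in people, and loss of a copy of RPS14 contributes to the anaemia of the 5q- syndrome.

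The sequence around the start is what these genes are known to share, so it was read first, in the RefSeq promoter table of build GRCm38.p6, which held 63 of the 86 members and 56 of the 76 standard genes. Within 50 bases on either side of a listed start, a run of at least 8 C or T on the gene's own strand was found in 48 of the 56 standard genes (85.7%) and in 39.3% of the 27025 genes in the table. On the opposite strand the same run was found in 14 of 56 (25%) and in 41.1% of all genes, so it was the gene strand on which the standard genes and the table differed most. Runs of at least 10 were found in 42 of 56 (75%) against 20.6% of all genes. The windows below run from 40 bases before to 20 bases after the listed start and were chosen to show long and short runs among the members described later; capitals mark the longest run of C or T, and the listed start may not be the cap site.
Rpl35: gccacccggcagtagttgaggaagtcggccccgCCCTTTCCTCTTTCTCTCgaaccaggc
Rpl4: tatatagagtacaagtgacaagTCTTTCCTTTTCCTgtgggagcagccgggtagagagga
Rpl13a: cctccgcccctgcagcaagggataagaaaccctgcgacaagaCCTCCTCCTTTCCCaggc
Rpl31: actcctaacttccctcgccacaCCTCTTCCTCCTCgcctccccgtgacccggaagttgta
Rps12: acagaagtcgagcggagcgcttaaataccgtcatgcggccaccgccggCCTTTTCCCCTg
Rps6: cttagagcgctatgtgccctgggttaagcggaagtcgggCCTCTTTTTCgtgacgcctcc
Rplp2: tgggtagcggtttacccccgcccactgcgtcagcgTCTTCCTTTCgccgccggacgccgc
Rpl5: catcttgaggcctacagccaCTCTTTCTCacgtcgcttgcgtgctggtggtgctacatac
Rpl22l1: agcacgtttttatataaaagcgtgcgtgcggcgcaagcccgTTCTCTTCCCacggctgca
Rpl7l1: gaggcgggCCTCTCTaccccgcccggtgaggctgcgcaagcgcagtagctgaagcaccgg
Rpl41: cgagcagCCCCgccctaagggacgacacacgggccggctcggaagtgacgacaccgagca

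In genome coordinates of GRCm38 these windows are chr2:39005112-39005171 on the minus strand for Rpl35, chr9:64173347-64173406 on the plus strand for Rpl4 and chr7:45128726-45128785 on the minus strand for Rpl13a. Those of Rpl31 (chr1:39367811-39367870), Rplp2 (chr7:141447611-141447670), Rpl5 (chr5:107900488-107900547) and Rpl22l1 (chr3:28805468-28805527) are on the plus strand. Those of Rps12 (chr10:23787190-23787249), Rps6 (chr4:86857348-86857407), Rpl7l1 (chr17:46782637-46782696) and Rpl41 (chr10:128549149-128549208) are on the minus strand. The longest run had 18 bases in Rpl35, 14 in Rpl4 and Rpl13a, 9 in Rpl5 and 4 in Rpl41. Short motifs were searched on both strands of the 50 bases before and after the start. CTTTCC on the gene strand was found in 18 of 56 standard genes (32.1%) and 5.43% of all genes, and on the opposite strand in 1 of 56 (1.79%) and 5.12%. CTCTTTCC, which contains CTTTCC, was found on the gene strand in 7 of 56 (12.5%) and 0.529% of all genes, and CTTTTCC in 8 of 56 (14.3%) and 1.48%. CCGGAAG, the core of ETS and GABP sites, was found on either strand in 12 of 56 (21.4%) and 5.98% of all genes, AAGATGGC, a YY1 motif, in 3 of 56 (5.36%) and 1.68%, and TATAAA on the gene strand in 4 of 56 (7.14%) and 4.05%. These are matches of letters and not measured sites.

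Ribosomal protein messenger RNA was slightly lower in the α-KG libraries for nearly every gene, and no single gene passed the test. Of the 82 members tested, 0 passed an adjusted p of 0.05 in either direction (edgeR quasi-likelihood test, Benjamini-Hochberg), where 2.73% of all 15126 genes tested passed, 2.39% higher and 0.344% lower. DESeq2 also called 0 members, against 10.4% of its genes with an adjusted p. At an unadjusted p under 0.05, edgeR found 3 of the 82 (3.66%), namely Rpl5 and Rpl41 lower and Rps4l higher, against 27.8% of all genes. DESeq2 found 12 of 86, against 15.4% of the 32183 genes in its fit. That fit had no filter on low counts, so its base is unlike that of edgeR and is not a like background for the members. The direction was more uniform than the size: the log2 fold change was below 0 for 78 of 82 members (95.1%) and for 48.3% of all genes. The members are not independent results. Over the 10 libraries, the correlation of a standard gene with the mean of the others had a median of 0.919. The median over members was -0.23, with quartiles of -0.30 and -0.16, beside 0.02 over all genes. The 5 water and 5 α-KG values overlapped for every tested member, while they did not overlap for 5.65% of all genes. All 76 standard genes passed the filter on low counts; the 4 members that did not are the low Rpl3l, Rpl39l, Rpl10l and Rpl32l.

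**Figure D1:**
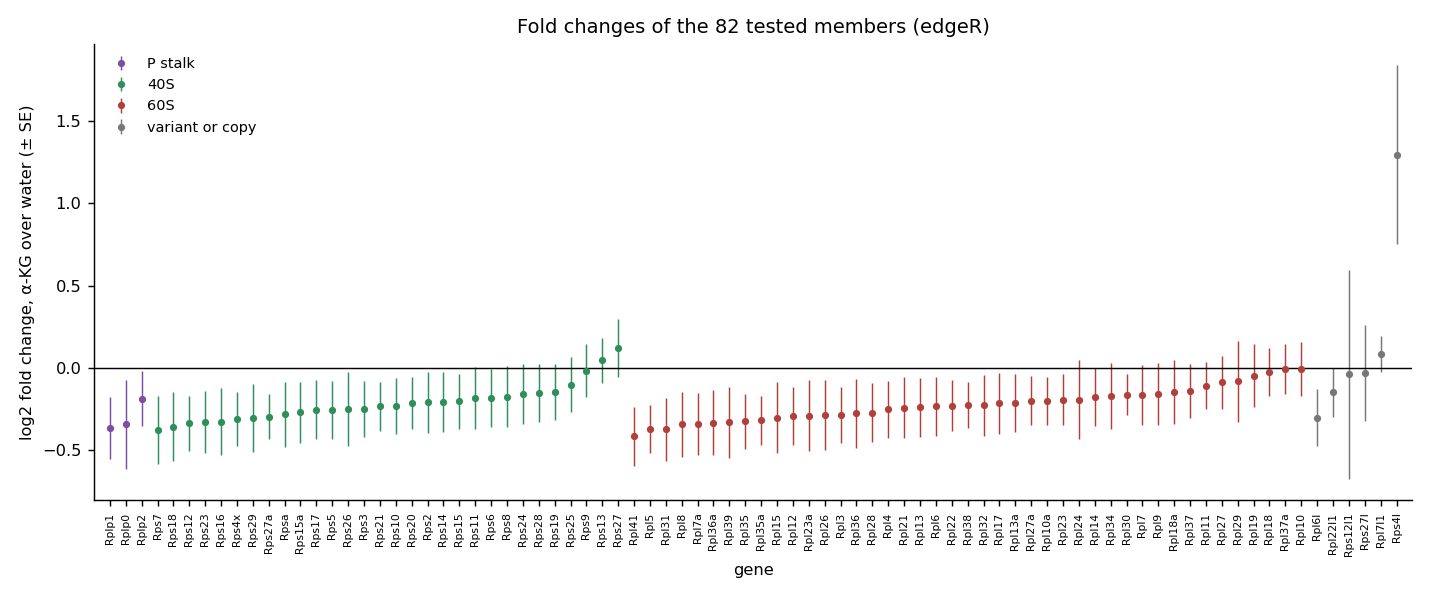
Log2 fold change of α-KG over water for each of the 82 tested members (vertical axis, points with bars of 1 SE from edgeR, n = 5 libraries per group), ordered along the horizontal axis and coloured by class. 78 points lie below 0, with quartiles over all 82 at -0.30 and -0.16, and Rps4l stands alone at 1.30 with a wide bar.

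**Figure D2:**
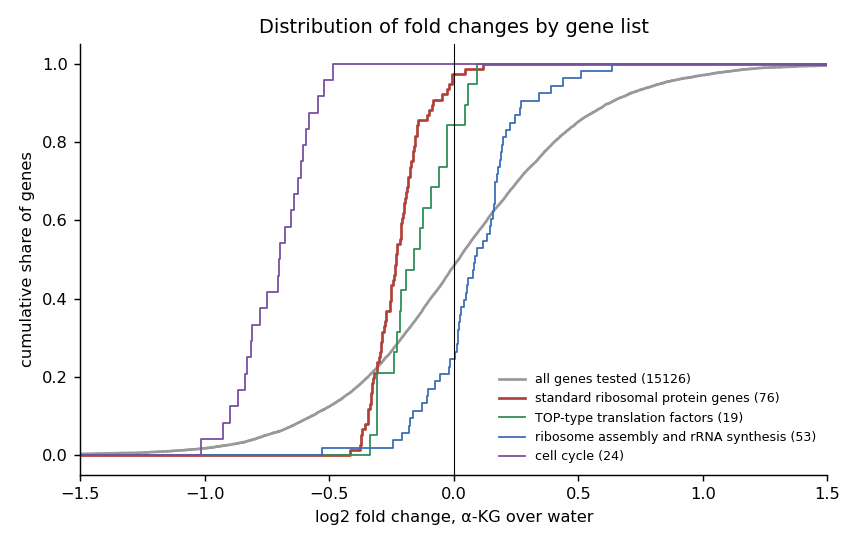
Cumulative share of genes (vertical axis) by log2 fold change of α-KG over water (horizontal axis) for all 15126 tested genes, the 76 standard ribosomal protein genes, 19 genes with TOP-type messages, 53 genes of ribosome assembly and 24 cell cycle genes. The curve of the ribosomal protein genes is steep and sits to the left of 0, with a median of -0.23, while the curve of all genes crosses its middle near 0.02.

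The level of the set differed more between libraries of a group than between the groups. The mean of log2(CPM + 1) over the 76 standard genes, where CPM is counts per 1000000 after TMM scaling, was 6.71, 6.4, 6.09, 6.65 and 6.84 in water 1 to 5 and 6.0, 6.45, 6.23, 6.48 and 6.49 in α-KG 1 to 5. Water 3 and α-KG 1 were the low libraries of their groups, and water 5 was the highest of all. The group means were 6.54 ± 0.297 for water and 6.33 ± 0.212 for α-KG (SD, n = 5), a difference of -0.21, and the highest library was 1.79-fold above the lowest. The same libraries were low for gene after gene: water 3 was the lowest water library for 72 of the 76 genes, and α-KG 1 the lowest α-KG library for 68. Water 5 was the highest of all 10 libraries for 56 genes. The result leaned on single libraries: without water 3, 28 of 82 members (34.1%) had an unadjusted p under 0.05, near the 30.0% of all genes in that fit, and the median was -0.31. Without water 5, 0 members had one, against 22% of all genes, and the median was -0.15. With counts scaled by library totals alone, the median of all genes moved to -0.22 and that of the members to -0.49, with 0 members called. In that fit 28 members (34.1%) and 22.1% of all genes had an unadjusted p under 0.05, and 1159 genes were called, 10.1% of them higher.

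**Figure D3:**
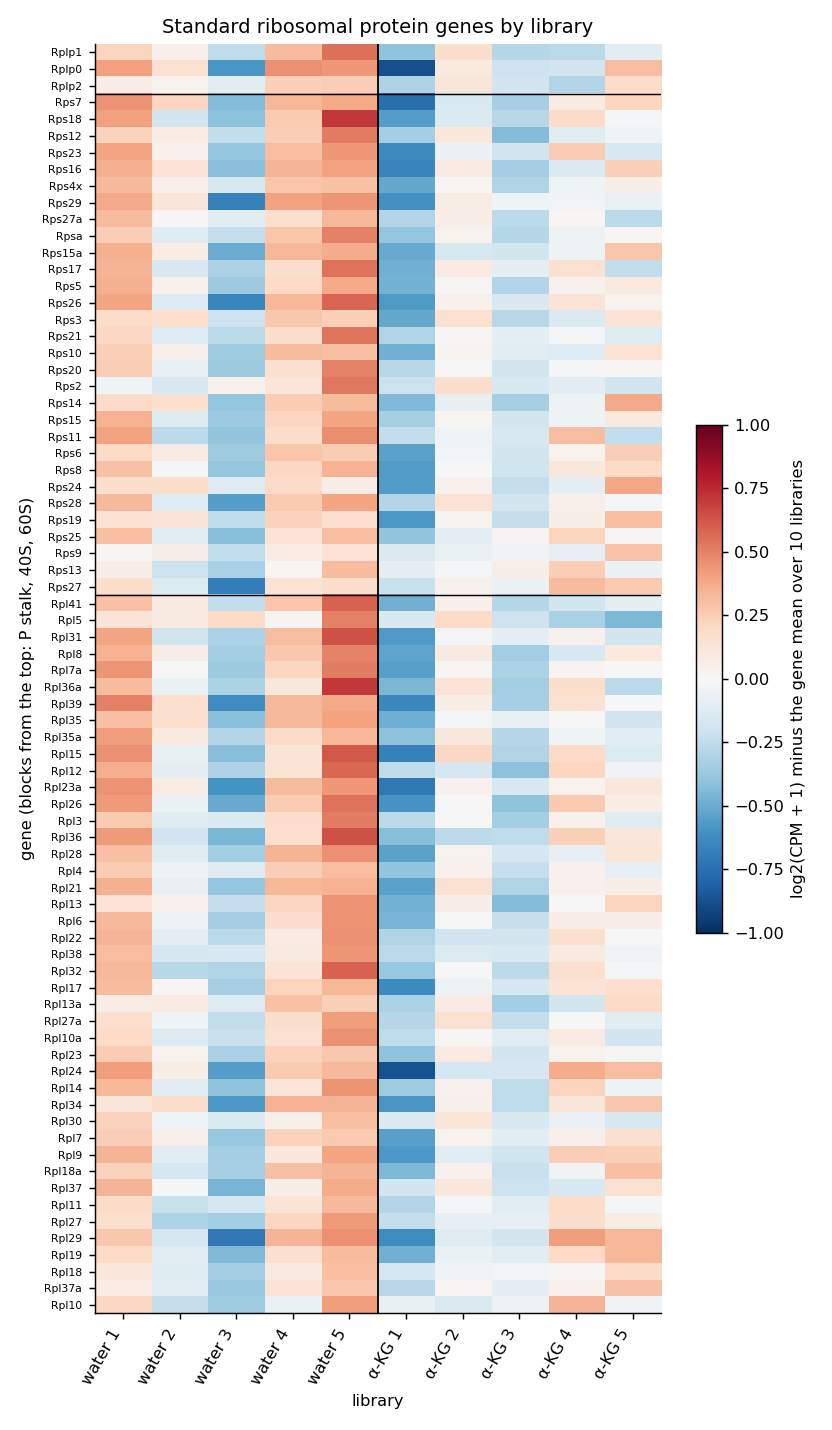
Log2(CPM + 1) of each of the 76 standard genes (rows, in blocks for the P stalk, 40S and 60S) minus its mean over the 10 libraries (columns, water left of the line and α-KG right of it). Whole columns share a colour: water 3 and α-KG 1 are low for nearly all genes and water 5 is high.

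The P stalk recruits the elongation factors that drive translation, and its genes were among the most abundant of the set. Per kilobase of the principal transcript, Rplp1 had the highest mean of all standard genes at 502 CPM and Rplp0 followed at 399, with a median of 116 over the 76. Rplp0, the scaffold of the stalk (chromosome 5, 115559467 to 115563727, GRCm38), was at 690.0, 578, 346, 713 and 703 CPM in water and at 282, 556, 449.7, 454 and 644 CPM in α-KG. Its low libraries were water 3 and α-KG 1, and the groups overlapped over most of their range. The means were 606 ± 155 and 477 ± 135 CPM (SD, n = 5; log2 fold change -0.34 ± 0.27 SE, edgeR adjusted p = 0.407). Rplp1, an acidic stalk protein (chromosome 9, 61913284 to 61914542), was at 286, 254, 206, 306 and 359 CPM in water and 186, 276, 201, 203 and 227 CPM in α-KG. Its value in α-KG 2 lay among the water libraries and the other α-KG libraries lay below 4 of the 5 water libraries (282 ± 57.2 against 219 ± 35.5 CPM, SD; log2 fold change -0.37 ± 0.19 SE, edgeR adjusted p = 0.220). Rplp2, its partner, was at 257 ± 26.1 and 225 ± 37.2 CPM (SD, n = 5; -0.19 ± 0.17 SE, edgeR adjusted p = 0.465).

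The small subunit decodes the messenger RNA. The median log2 fold change over its 30 genes was -0.23, with 28 below 0 and 0 called. Rpsa, which also serves as a laminin receptor (chromosome 9, 120127689 to 120132369), was at 471, 364, 335, 480.3 and 560.4 CPM in water and 303, 407, 325, 381 and 401 CPM in α-KG. The α-KG values lay inside the lower part of the water range, except for α-KG 1 and α-KG 3, which were below it (log2 fold change -0.28 ± 0.20 SE, edgeR adjusted p = 0.356). Rps27a, a ribosomal protein made as a fusion with ubiquitin (chromosome 11, 29545846 to 29548109), was at 104, 83.7, 76.8, 93.3 and 105 CPM in water and 67.5, 86.9, 68.8, 84.2 and 68.9 CPM in α-KG. α-KG 2 and α-KG 4 lay inside the water range and the other 3 α-KG libraries lay below it (-0.30 ± 0.14 SE, unadjusted p = 0.050, edgeR adjusted p = 0.180). Rps12 was at 139 ± 26.4 and 109.9 ± 16.8 CPM (SD; -0.34 ± 0.17 SE, edgeR adjusted p = 0.207) and the X-linked Rps4x at 183 ± 25.2 and 147 ± 23.8 CPM (-0.31 ± 0.16 SE, adjusted p = 0.232).

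Rps6, the substrate of S6 kinase and a usual readout of mTORC1 activity at the protein level, was at 139 ± 22.9 and 122 ± 23.6 CPM (SD, n = 5; log2 fold change -0.18 ± 0.18 SE, edgeR adjusted p = 0.503). Rps19, the gene most often mutated in Diamond-Blackfan anaemia, was at 94.7, 93.1, 71.2, 100.03 and 95.9 CPM in water and 56.9, 87.4, 72.1, 89.0 and 105 CPM in α-KG. The 4 higher water libraries lay close together, and the α-KG libraries spread to both sides of them (-0.15 ± 0.17 SE, edgeR adjusted p = 0.577). Rps14 was at 94.6 ± 16.6 and 81.8 ± 19.2 CPM (SD; -0.21 ± 0.18 SE, adjusted p = 0.455). Rps2, a member of the small subunit near the messenger RNA entry, was at 350.0, 325, 370.2, 391 and 518 CPM in water and 309.7, 408, 323, 332 and 316 CPM in α-KG. Here α-KG 2 was above 4 of the 5 water libraries, while the other α-KG libraries were at or below the low end of the water range (-0.21 ± 0.18 SE, edgeR adjusted p = 0.460). In the annotation, reads of Rps2 can also overlap Snhg9.

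The large subunit forms the peptide bond. All 43 of its genes had a log2 fold change below 0, with a median of -0.23 and 0 called. Rpl5 had the smallest p of all members. With Rpl11 and 5S RNA, its product forms the particle that holds Mdm2 and so raises p53 when ribosome assembly fails. Rpl5 (chromosome 5, 107900502 to 107909005) was at 70.1, 68.4, 73.6, 65.4 and 91.5 CPM in water and 57.7, 73.3, 55.5, 51.1 and 46.8 CPM in α-KG. Only α-KG 2 reached the water range, where it was close to the second highest library. The means were 73.8 ± 10.3 and 56.9 ± 10.1 CPM (SD, n = 5; log2 fold change -0.37 ± 0.15 SE, unadjusted p = 0.0237, edgeR adjusted p = 0.129). Without α-KG 2 it was called (-0.48, edgeR adjusted p = 0.0330), in a fit where 6.97% of all genes were called lower. Exons of Rpl5 overlap Fam69a on the opposite strand and no source used here states whether counting used strand. The same limit holds for other members described here, among them Rps27a (overlapping Clhc1), Rpl35 (Arpc5l and Wdr38) and Rpl22l1 (Gm33051). Rpl11, the partner of Rpl5, was at 78.9 ± 13 and 73.2 ± 8.87 CPM (SD, -0.11 ± 0.14 SE, edgeR adjusted p = 0.628).

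Rpl41, which encodes a very short basic peptide (chromosome 10, 128548114 to 128549305), had the most negative log2 fold change of the members. It was at 237, 206, 162, 235 and 291 CPM in water and 138, 199.8, 159, 169.8 and 179.9 CPM in α-KG. The α-KG libraries were below all water libraries other than water 3 (226 ± 47.0 against 169 ± 23.1 CPM, SD; -0.42 ± 0.18 SE, unadjusted p = 0.0389, edgeR adjusted p = 0.159). Rpl35a, Rpl35 and Rpl31 had log2 fold changes of -0.32 ± 0.15, -0.33 ± 0.16 and -0.37 ± 0.19 SE, with adjusted p from 0.185 to 0.216. Rpl35, with the longest C and T run printed above, was at 81.4, 73.8, 49.1, 82.8 and 87.4 CPM in water and 46.7, 65.4, 62.6, 66.2 and 57.8 CPM in α-KG. Rpl41, with a run of only 4 in the same window, lay at the same end of the list. Among the most abundant large subunit genes, Rpl4 was at 345 ± 46.6 and 289.6 ± 36.9 CPM (SD; -0.25 ± 0.17 SE, adjusted p = 0.344), and Rpl13a, whose product can leave the ribosome in interferon-treated myeloid cells to silence translation, at 312 ± 34.9 and 269 ± 46.5 CPM (-0.21 ± 0.17 SE, adjusted p = 0.427). Rpl10, among the last large subunit proteins to join, was at 69.7 ± 15.9 and 69.4 ± 9.93 CPM (-0.01 ± 0.16 SE, edgeR adjusted p = 0.986).

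**Figure D4:**
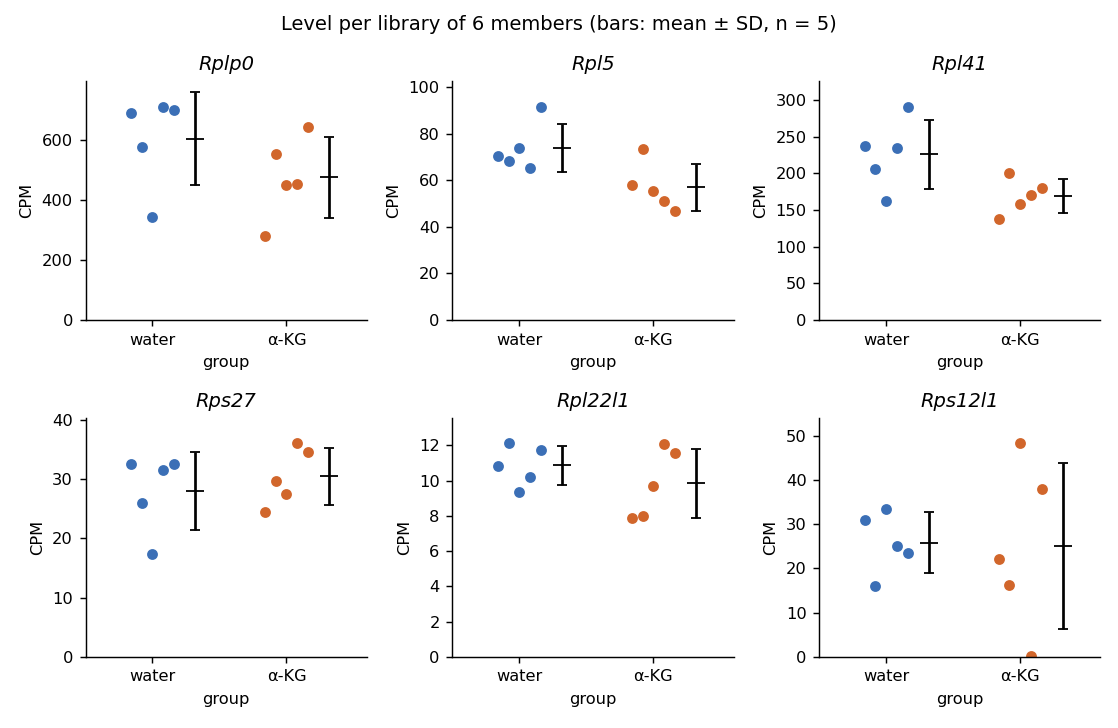
Level in CPM (vertical axis, from 0) in each of the 10 libraries (points) for 6 members, with bars for the mean ± SD of 5 libraries per group. The water and α-KG points overlap in every panel, and for Rpl5 the overlap comes from α-KG 2 at 73.3 CPM.

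Proportions within the set were steadier than its level. The mean log2(CPM + 1) of the 40S genes minus that of the 60S genes was 0.33 ± 0.039 for water and 0.33 ± 0.028 for α-KG (SD, n = 5), although each subunit's level ranged widely over libraries. The P stalk minus 60S value was 2.11 ± 0.089 in water and 2.02 ± 0.182 in α-KG, with α-KG 4 lowest at 1.74. For single genes, the log2 ratio of the gene to the mean of the set had an SD over the 10 libraries of 0.133 in the median gene, against 0.267 for the mean of the set itself, and 75 of 76 genes were below that. Rpl6 followed the set most closely (SD 0.030) and Rpl5 least (SD 0.311), with 10 genes over 0.2. The groups did not overlap in this ratio for 2 of the 76 genes, beside 1.22% of all genes tested. They are Rps27 and Rpl37a, named after their values were seen, both zinc finger proteins of the ribosome. The ratio is to the mean of these same 76 genes, so the share over all genes is not a like background. Rps27 was at 32.6, 26.0, 17.4, 31.6 and 32.5 CPM in water and 24.5, 29.7, 27.5, 36.0 and 34.5 CPM in α-KG, and its mean was not lower in α-KG (28.0 ± 6.55 and 30.4 ± 4.82 CPM, SD, n = 5; log2 fold change 0.12 ± 0.18 SE, edgeR adjusted p = 0.675). Its log2 ratio to the set ran from -1.89 to -1.62 in water and from -1.51 to -1.27 in α-KG. That of Rpl37a ran from -0.38 to -0.21 and from -0.19 to 0.06. Rps27 and Rps13 (log2 fold change 0.05) were the only standard genes above 0.

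Several ribosomal proteins have paralogues that replace them in some tissues. Rpl3l is known from heart and skeletal muscle, and Rpl10l and Rpl39l from the testis. Rpl39l had 2 counts in α-KG 1 and 1 in α-KG 3 and none in the other 8 libraries, and Rpl10l had 2 in α-KG 4 and none in the other 9, where 3 counts correspond to 0.0927 to 0.285 CPM. Rpl3l had 1 to 11 counts in a library. These levels allow no comparison between the groups. Rpl22l1, the paralogue of Rpl22 active in blood cell development, was at 10.9, 12.1, 9.38, 10.2 and 11.7 CPM in water and 7.86, 8.0, 9.68, 12.1 and 11.6 CPM in α-KG. α-KG 1 and α-KG 2 lay below the water range and the other 3 inside it (-0.15 ± 0.15 SE, edgeR adjusted p = 0.520). There were 31.1 ± 5.93 counts of Rpl22l1 per 100 of Rpl22 in the water group and 32 ± 3.02 in the α-KG group (SD, n = 5, not corrected for length). Rps27l, a p53 target, was at 5.39 ± 1.96 and 5.31 ± 1.62 CPM (SD; -0.03 ± 0.29 SE, edgeR adjusted p = 0.951), with 18.9 ± 3.39 and 17.1 ± 3.48 counts per 100 of Rps27. Rpl7l1, a factor of ribosome assembly, was at 14.9 ± 1.56 and 15.9 ± 1.18 CPM (SD; 0.09 ± 0.11 SE, edgeR adjusted p = 0.615).

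Of the 4 rows annotated as pseudogenes, Rps4l and Rps12l1 varied most between libraries. Rps4l was at 0.495, 0.199, 1.24, 0.422 and 0.357 CPM in water and 0.933, 0.592, 1.48, 0.760 and 3.31 CPM in α-KG. Its level was low, and α-KG 5 alone held more than any other library by a wide margin (log2 fold change 1.30 ± 0.55 SE, unadjusted p = 0.0344, edgeR adjusted p = 0.151). Rps12l1 was at 30.9, 15.9, 33.5, 25.1 and 23.4 CPM in water and 22.1, 16.2, 48.3, 0.285 and 38.1 CPM in α-KG. It was nearly empty in α-KG 4, where Rps12 itself was at 113 CPM (log2 fold change -0.04 ± 0.64 SE, edgeR adjusted p = 0.972). Rpl6l was at 8.95 ± 1.54 and 7.29 ± 1.48 CPM (SD; -0.30 ± 0.17 SE, edgeR adjusted p = 0.257), and Rpl32l had at most 8.01 counts and none in 2 libraries. Such rows are near copies of the genes they came from, and no source used here states how the estimated counts were split between them. The table also held 318 rows named as copies of 63 members. For Rps23, Rps6, Rpl31, Rpl28, Rpl36a, Rpl10 and Rps12 those rows held more than 50% as many counts as the gene, with 115% for Rps23 and 106% for Rps6, so the levels of these genes are uncertain. With the copies added to their genes, the median log2 fold change of the members was -0.22 and 0 were called.

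Many ribosomal protein genes carry small nucleolar RNA genes in their introns. The annotation placed 57 such genes inside 29 of the 76 standard genes, and they touch an annotated exon in 24. The median log2 fold change was -0.23 for these 29 and -0.23 for the 47 without one.

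As a share of all counts, the 86 members took 1.47%, 0.787%, 0.915%, 1.06% and 0.929% in water 1 to 5 and 0.857%, 0.828%, 0.627%, 0.623% and 0.745% in α-KG 1 to 5. Water 1 was the high library, and the α-KG libraries reached into the water range from below. The means were 1.03% ± 0.263 and 0.736% ± 0.109 (SD, n = 5). Part of each library was structural RNA: Rn7s1 and Rn7s2, which encode 7SL RNA, held 16.4% ± 5.92 of all counts in the water group and 27.2% ± 2.50 in the α-KG group (SD, n = 5; two-sided exact permutation p = 0.0159, smallest possible 0.00794). With protein-coding counts as the base, the members took 1.85% ± 0.278 and 1.6% ± 0.159. With the Rn7s share as a covariate, the median log2 fold change of the members was -0.28 and 0 were called, and 0 of all genes were called against 413 without it (1810 at an unadjusted p under 0.05). The share ran from 7.56% to 24.2% in water and from 24.0% to 31.0% in α-KG, overlapping only at water 5 and α-KG 1. It nearly separates the groups, so this fit cannot tell the share from the treatment. With structural RNA left out of the fit, the median of the members was -0.22, with 76 of 82 below 0. In that fit 0 members and 368 of 15011 genes were called. With all counts other than structural RNA as the base, the members took 1.48% ± 0.243 and 1.23% ± 0.146. The part of structural RNA in the level of the members was not tested beyond these values.

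The levels of cell cycle and cell type genes are given beside those of the members. Of 24 cell cycle genes, 24 had a log2 fold change below 0, beside 48.3% of all genes, with a median of -0.70. At an unadjusted p under 0.05 edgeR found all 24, against 27.8% of all genes. After adjustment 0 passed, with edgeR adjusted p from 0.0555 to 0.134, where 0.344% of all genes were called lower. The summed level of the cell cycle list was 4300 to 6074 CPM in water and 1528 to 4623 CPM in α-KG. No gene of that list was at 0 in all libraries. Of 19 erythroid genes 14 were below 0, with a median of -0.56 and 0 called, and summed levels, which are mostly globin, of 33947 to 81433 CPM in water and 37200 to 128242 CPM in α-KG. Of 15 monocyte genes 14 were above 0 and 10 were called higher. Their summed level was 919.6 to 1138 CPM in water and 1203 to 2305 CPM in α-KG. Of 14 measured macrophage genes 13 were above 0 and 6 were called higher, with 97.1 to 140.0 and 153 to 232 CPM. Over all genes tested, 2.39% were called higher. No member of either list was called lower or was at 0 in all libraries. The list mean of log2(CPM + 1) for the cell cycle genes was 6.94, 6.76, 6.48, 6.87 and 7.08 in water and 5.37, 6.69, 5.68, 6.2 and 6.35 in α-KG, so water 3 and α-KG 1 were also the lowest libraries of their groups there. The part of these lists in the level of the ribosomal protein genes was not tested. In bulk RNA, fewer cells of a type and less RNA per cell cannot be told apart.

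**Figure D5:**
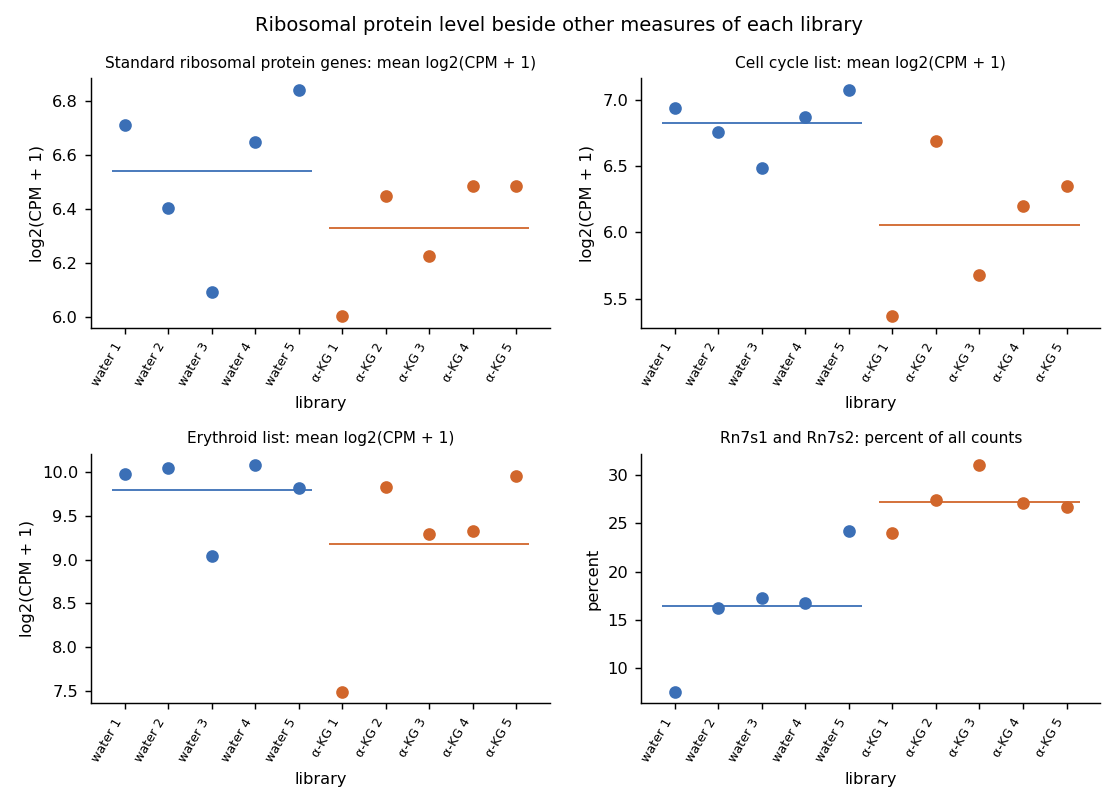
Values of each of the 10 libraries (horizontal axis, water then α-KG) for the mean level of the 76 standard genes and other measures named in the panel titles, in percent or log2(CPM + 1). Water 3 and α-KG 1 are low in the panels of the ribosomal protein, cell cycle and erythroid genes.

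Some components of the ribosome have names that the symbol rule left out, and 0 of those described here were called. Rps3a1, the mouse gene for the small subunit protein eS1, was at 278 ± 27.7 and 214 ± 42.8 CPM (SD, n = 5; log2 fold change -0.38 ± 0.18 SE, edgeR adjusted p = 0.185). The scaffold protein gene Rack1 was at 208 ± 46.3 and 182 ± 25.3 CPM (SD; -0.19 ± 0.19 SE, edgeR adjusted p = 0.511). Fau, a ubiquitin-like fusion, was at -0.10 ± 0.13 SE (adjusted p = 0.608) and Rpl36al at 0.004 (adjusted p = 0.988) on the log2 fold change scale. Of 19 translation factors and other genes with TOP-type messages, 16 were below 0 and 0 were called, with a median of -0.16. The elongation factor subunit Eef1b2 had the smallest p among them (109 ± 8.12 against 88.3 ± 11.2 CPM, SD; -0.31 ± 0.13 SE, edgeR adjusted p = 0.149). The 9 snoRNA host genes, whose spliced RNAs are also of the TOP type in several cases, had a median of -0.32, with 8 below 0 and 0 called. Their summed level was 174 to 198 CPM in water and 125 to 171 CPM in α-KG, without overlap. Of all single genes, 5.65% have groups that do not overlap, but that share is not a like background for a sum over genes. Snhg8 was at 12.0, 12.8, 10.6, 11.8 and 14.8 CPM in water and 7.70, 10.4, 7.85, 9.88 and 6.69 CPM in α-KG, with all α-KG values below all water values (-0.54 ± 0.15 SE, edgeR adjusted p = 0.062). Gas5 was at 84.9 ± 4.06 and 67.7 ± 8.65 CPM (-0.33 ± 0.12 SE, adjusted p = 0.113).

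Genes for the assembly of ribosomes had log2 fold changes mostly above 0. Of 53 measured genes of ribosome assembly and ribosomal RNA synthesis, 40 were above 0 and 0 were called, with a median of 0.09 beside 0.02 over all genes. The share below 0 was 24.5%, beside 48.3% of all genes. At an unadjusted p under 0.05 edgeR found 5 (9.43%), against 27.8% of all genes. The summed level of the list was 1304 ± 108 CPM in water and 1304 ± 111 CPM in α-KG (SD, n = 5). Tcof1, which promotes transcription of ribosomal RNA, was at 30.1, 29.5, 40.2, 30.2 and 31.1 CPM in water and 71.7, 35.6, 47.5, 53.6 and 41.7 CPM in α-KG. Of the α-KG libraries only α-KG 2 lay inside the water range (log2 fold change 0.63 ± 0.18 SE, edgeR adjusted p = 0.0662). Bop1, of the complex that processes the large subunit's RNA, was at 11.5 ± 1.37 and 15.6 ± 2.68 CPM (0.44 ± 0.14 SE, adjusted p = 0.0895), and Efl1, which releases Eif6 from new large subunits, at 7.17 ± 0.889 and 9.09 ± 0.862 CPM (0.34 ± 0.13 SE, adjusted p = 0.119). The 19 genes of mTORC1 and LARP1 had a median of -0.20, with 16 below 0 and 0 called. The list mixes inhibitors of mTORC1 with its components and effectors, so the median gives no direction of mTORC1 activity, which was not tested. Ddit4, an inhibitor of mTORC1, had the smallest p of the list. It was at 21.7 ± 4.46 and 16.3 ± 2.89 CPM (-0.41 ± 0.16 SE, edgeR adjusted p = 0.134). Of 8 transcription factors of ribosomal protein promoters, 7 were below 0 and 0 were called, with a median of -0.26; Taf1 was at 70.9 ± 3.67 and 53.2 ± 10.1 CPM (-0.41 ± 0.14 SE, edgeR adjusted p = 0.0921) and Nrf1 at 50.4 ± 4.6 and 36.9 ± 7.90 CPM (-0.45 ± 0.15 SE, adjusted p = 0.0943). The 12 measured genes of nucleolar stress and p53 were split, with 6 below 0, a median of -0.06 and 0 called.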

How the data were processed

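Total RNA was extracted from bone marrow cells with DNase treatment and ribosomal RNA was removed with RNase H, per the labels' protocols. The values the authors deposited are estimated counts (expected counts) per gene, unscaled between libraries, and 10.3% of all values and 85.2% of the members' values are not whole. The submitters' processing notes name bcl2fastq, DRAGEN and GRCm38. No source used here gives the annotation release, the quantifier or whether strand was used. Library totals ran from 14291364 to 22490118.

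Counts were rounded, and genes were kept by filterByExpr (minimum count 10, minimum total 15), which left 15126 of 32256 genes with a count, holding about 99.8% of each library's counts. All 10 libraries entered 1 fit of α-KG against water (edgeR 4.0.16 quasi-likelihood F test, TMM scaling, robust, R 4.3.3, Benjamini-Hochberg over all genes tested, threshold 0.05, two-sided). SE is the standard error of a log2 fold change. Steps were tested on simulated data, in 5 simulations with 200 changed genes each. The test recovered 8.96% of 1.5-fold, 54.3% of 2-fold and 86.7% of 4-fold changes, and 6.74% of its calls were false. Changes as small as the members' median log2 fold change of -0.23 were not simulated, so 0 members called does not show that none changed. CPM are counts per 1000000 of the TMM-scaled library. Positions, biotypes and principal transcript lengths came from GENCODE M21 (GRCm38). Summaries over the members carry no test.

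Named members are the 10 with the smallest p, the 5 with the highest and the 5 with the lowest mean count, the l and l1 variants and 10 chosen genes; of other lists, the 3 with the smallest p could be named. A gene that this rule took is not reported here. Members and lists were chosen with earlier results of these data known. Alternatives were other scalings, filters, DESeq2 1.42.0, limma 3.58.1 voom, a covariate, added copies and each library left out in turn.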

Additional observations from a re-analysis of the deposited data

Results flagged for a closer look

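In 6 of 56 groups of 5 libraries checked for the named members, a single library lay far from the other 4, where chance flags about 1 in 20 groups. The groups come from the same libraries and are not independent, so the excess over that rate cannot be judged. Water 3 was apart on the low side for Rps14 (65.9 CPM, the others at 97.2 to 108) and Rps19 (71.2 CPM, the others at 93.1 to 100.03), and it was the lowest water library for most standard genes. Water 3 was also apart on the high side for the pseudogene row Rps4l, at 1.24 CPM with the others at 0.199 to 0.495. Water 1 was apart for Rpl6l, at 11.6 CPM with the others at 7.82 to 8.87. In the α-KG group, α-KG 4 was apart for Rpl10 at 86.9 CPM, with the others at 62.1 to 66.9, and α-KG 2 for Rps2 at 408 CPM, with the others at 309.7 to 332.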

How the results depend on the processing

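Under 23 alternatives, 0 members were called in 22 and Rpl5 alone was called without α-KG 2, so leaving out a library gave 0 to 1 called. The median of the members minus that of all genes stayed below 0 in all of them, from -0.34 to -0.17, and 70 to 81 members were below 0. Counts over all genes, 413 by edgeR (87.4% higher), were 1654 with DESeq2 (58.5% higher), 2390 with limma voom and quality weights (58.6% higher), 267 with limma voom, 1159 with library totals only (10.1% higher), 582 without a filter (73.5% higher), 0 with the Rn7s share as a covariate and 0 to 2683 with a library left out. Among named members, the log2 fold change of Rpl10 changed sign with the CPM filter (0.0070), voom (0.013), voom with quality weights (0.10), structural RNA left out (0.0069), upper quartile scaling (0.053) and without single libraries (-0.10 to 0.11). That of Rps27l did so with voom and quality weights (0.064), upper quartile scaling (0.013) and without single libraries (-0.20 to 0.14). That of Rps12l1 did so with upper quartile scaling (0.021) and without single libraries (-0.42 to 0.27), and it reached -0.87 with voom and -1.48 with voom and quality weights against -0.04 with edgeR. That of Rpl7l1 changed sign with library totals only (-0.18). The cause was not tested. Of 597 values of named members under alternatives, 574 kept direction and side of the threshold. No paired analysis was possible because no replicate number or pairing label links water to α-KG samples. The copies of ribosomal protein genes, the unstated strand and 5 libraries per group limit what single members can show.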
